A study of Mus musculus with 22 samples.

Results

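Platelets stick to a vessel wall and to each other through integrins, and 5 integrin subunit genes are described here: Itga2b, Itgb3, Itga2, Itga6 and Itgb1. They were chosen by name as subunits of platelet integrins, and other integrin subunit genes are given further on. All 5 were found among the 9326 genes of the megakaryocyte tables and among the 23930 rows of the platelet table. The samples with Srsf3 deleted came from adult Pf4Cre-Srsf3fl/fl mice, called knockout here, where the Pf4 promoter switches Cre on in megakaryocytes and Cre removes floxed Srsf3, a gene for a splicing factor. Megakaryocytes are the marrow cells that release platelets; they were sorted by CD41 on their surface and by ploidy. One gate, named 16N-plus here, took cells of 16N or more and the other took 8N cells, with 3 knockout and 3 Cre-negative control samples in each, and the sorted cells of a sample were pooled. Washed platelets came from knockouts (4 samples), Cre-negative controls (3 samples) and wild type mice (3 samples). The strain label was C57BL/6 for all megakaryocyte samples, while the platelet samples carried labels that run from C57BL/7 to C57BL/16, a different number for each sample. Only the knockouts carry Cre, so an effect of Cre and an effect of Srsf3 loss cannot be told apart. Whether the Cre-negative controls carried floxed alleles, and whether each sample is its own animal, is not given in the labels. The p-values therefore speak for these samples, not for a known number of animals. The authors' megakaryocyte p-values imply 339.5 degrees of freedom from 12 samples. They therefore rest mostly on spread pooled over genes, and little on each gene's own spread between samples.

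An integrin is a pair of an alpha and a beta subunit that spans the membrane and links proteins outside the cell to the actin cytoskeleton. αIIbβ3, made from Itga2b and Itgb3, binds fibrinogen and holds platelets together in a clot, and its loss causes the bleeding disorder Glanzmann thrombasthenia. α2β1, from Itga2 and Itgb1, is a collagen receptor, and α6β1, from Itga6 and Itgb1, is a laminin receptor. CD41, the protein used for the sort, is the product of Itga2b, so the presence of Itga2b RNA in the sorted cells is no finding, and cells whose CD41 fell under the gate are not in these libraries.

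The files used here hold the authors' own comparisons, as log2 fold changes with p-values, and no values per library. They do not say which group is the numerator. The megakaryocyte tables are tied to each other, because the difference between the genotype effects of the 2 gates equals the difference between the ploidy steps of the 2 genotypes to within 1e-14. A positive value is read here as higher in knockout than in control samples, or as higher in 16N-plus than in 8N cells, a direction inferred from genes other than integrins. Under it, all 24 listed mitosis and replication genes lay below 0 in the control ploidy step (6 passed the test) and all 15 listed platelet genes lay above 0 (13 passed). The sign of the platelet table was read from the same platelet genes, of which 11 of 14 measured were then lower in knockout platelets and 0 higher. That the integrin genes are lower in knockout platelets rests on this reading. By themselves the values show only that the integrin genes share the sign of most of those platelet genes. If the direction is the other way round, the signs of all megakaryocyte tables turn together, while those of the platelet table can turn alone, and sizes and p-values stay. Srsf3 itself did not settle the direction: its log2 fold change over both gates in the authors' deposited table was 0.38 (SE 0.17 with an edgeR adjusted p of 0.28), above 0 in the knockout under this reading, from a gene-level value that need not follow the deleted exons. All 10 listed megakaryocyte markers other than integrins were among the measured megakaryocyte genes, Vwf at a mean log2 CPM of 12.01 and Pf4 at 9.26 in the authors' deposited table. Per-library depth is not given.

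Itga2b (ENSMUSG00000034664) lies on chromosome 11 of GRCm38, from 102453297 to 102470122 on the minus strand, and Itgb3 (ENSMUSG00000020689) on the same chromosome from 104608000 to 104670476 on the plus strand, 2.14 Mb away. Itga2 (ENSMUSG00000015533) lies on chromosome 13 from 114833081 to 114932100 on the minus strand. Itga6 (ENSMUSG00000027111) lies on chromosome 2 from 71745616 to 71858416, and Itgb1 (ENSMUSG00000025809) on chromosome 8 from 128685654 to 128733200, both on the plus strand. Promoters are printed because the RNAs of all 5 genes moved in the same direction in the comparisons described further on. Only 3 of the 5 genes had an entry in the promoter table. The windows are the 250 bases before the transcript start, from RefSeq on GRCm38.p6, 5′ to 3′ on the strand of the gene. Capitals mark 6-base matches on either strand to an ETS motif (AGGAAG or CGGAAG), a GC box (GGGCGG) or a GATA motif (AGATAA or its variant AGATAG, and the same with T first, TGATAA or its variant TGATAG).
Itga2b, chr11:102469884-102470133, minus strand: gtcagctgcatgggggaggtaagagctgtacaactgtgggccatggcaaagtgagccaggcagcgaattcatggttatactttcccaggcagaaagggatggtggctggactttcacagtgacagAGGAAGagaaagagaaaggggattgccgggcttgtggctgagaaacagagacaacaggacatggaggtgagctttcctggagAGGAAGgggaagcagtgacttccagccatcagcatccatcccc
Itga2, chr13:114932101-114932350, minus strand: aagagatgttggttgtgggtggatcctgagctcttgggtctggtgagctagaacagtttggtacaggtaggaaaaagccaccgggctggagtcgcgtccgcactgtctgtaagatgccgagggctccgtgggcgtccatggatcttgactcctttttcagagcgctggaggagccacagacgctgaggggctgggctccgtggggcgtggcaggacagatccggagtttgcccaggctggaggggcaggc
Itgb1, chr8:128685404-128685653, plus strand: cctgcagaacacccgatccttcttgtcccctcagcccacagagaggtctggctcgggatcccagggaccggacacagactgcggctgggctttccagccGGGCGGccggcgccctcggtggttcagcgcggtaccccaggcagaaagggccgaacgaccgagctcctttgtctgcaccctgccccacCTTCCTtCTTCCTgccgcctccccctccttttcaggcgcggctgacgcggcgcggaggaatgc

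In the window of Itga2b 2 ETS matches were found, the nearer at 43 to 38 bases before the start, and part of that window is also an exon of a non-coding Itga2b transcript in GENCODE M21. The window of Itgb1 held 2 ETS matches and 1 GC box, and that of Itga2 held 0 matches. The GATA letters had 0 matches in each of the 3 windows. Among 32851 RefSeq promoters, 39.2% of windows of the same length held an ETS match, 32.7% a GC box and 26.5% a GATA match. The G and C content of the windows was 54.0% for Itga2b, 60.8% for Itga2 and 68.0% for Itgb1. Itgb3 and Itga6 had no entry in the promoter table.

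The megakaryocyte libraries were rich in αIIbβ3 RNA. By mean log2 CPM in the authors' deposited table, Itga2b at 12.18 ranked 7 and Itgb3 at 11.65 ranked 11 of 9326 genes. Itga6 at 10.80 ranked 26 and Itgb1 at 9.40 ranked 137, while Itga2 at 7.01 ranked 2224. In platelets, where each gene is read through an amplicon and levels of different genes are not compared per length, the mean normalised count in the authors' deposited table was 71670 for Itga2b, 16221 for Itgb3, 3946 for Itga2, 45611 for Itga6 and 19706 for Itgb1. Ranks in the platelet table were 14 of 23930 rows for Itga2b and 346 for Itga2, with the other members between 26 and 86.

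A level for each megakaryocyte group was rebuilt from the deposited mean CPM and fold changes and divided by the length of all annotated exons, which allows genes to be compared; it has no spread over samples, because no values per library were at hand. Itga2b came to 617 CPM per kb in 8N knockout cells against 752 in 8N controls, and to 837 in 16N-plus knockout cells against 1204 in 16N-plus controls. Itgb3 came to 267 CPM per kb in 8N knockout cells against 470 in 8N controls, and to 437 in 16N-plus knockout cells against 1012 in 16N-plus controls. Itga6 came to 59.3 CPM per kb in 8N knockout cells against 114 in 8N controls, and to 143 in 16N-plus knockout cells against 472 in 16N-plus controls. For every member 16N-plus controls had the highest rebuilt level and 8N knockouts the lowest. Itgb1 came to 107 CPM per kb in 8N knockout cells against 158 in 8N controls, and to 147 in 16N-plus knockout cells against 251 in 16N-plus controls. Itga2, the least abundant, came to 9.97 CPM per kb in 8N knockout cells against 16.4 in 8N controls, and to 14.6 in 16N-plus knockout cells against 31.1 in 16N-plus controls. 16N-plus knockout cells stood above 8N controls for Itga2b and Itga6 and under them for Itgb3, Itga2 and Itgb1, and no deposited comparison sets these 2 groups against each other.

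**Figure D1:**
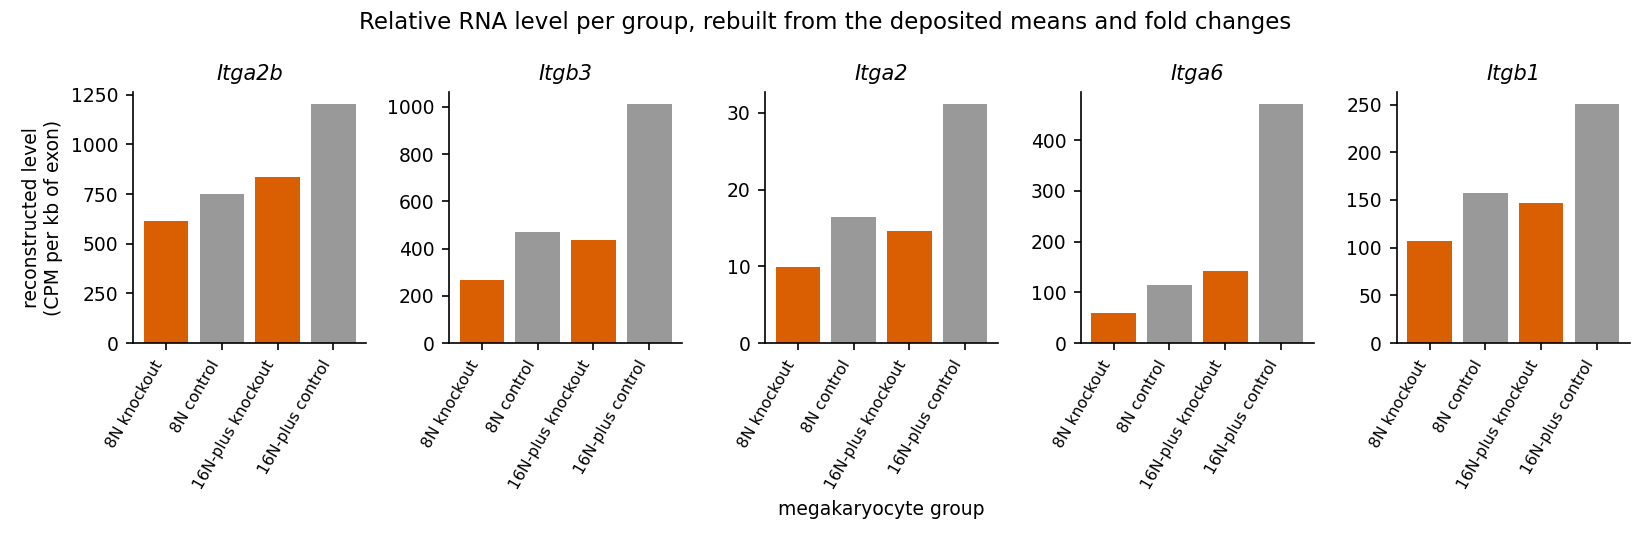
Rebuilt RNA level (CPM per kb of exon, linear axis from 0, a separate scale for each gene) of the 5 integrin subunit genes in 4 megakaryocyte groups; orange bars are knockout and grey bars control, with no error bars because values per library were not at hand. Itga6 stands at 143 in 16N-plus knockout cells against 472 in 16N-plus controls, and Itga2b at 837 against 1204.

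In 8N cells 3 of the 5 subunits were lower in the knockout and 0 higher, where 1.14% of all 9326 genes were lower, 0.300% higher and 1.44% either. A gene counts as lower or higher where its p, adjusted over every gene of the table, was under 0.05. The laminin receptor subunit Itga6 fell to 0.519 of the control level, a log2 fold change of -0.95 in the authors' deposited table (SE 0.20 with an edgeR adjusted p of 0.000937). Itgb3, the beta partner of αIIb, was at -0.81 in the authors' deposited table (SE 0.13 with an edgeR adjusted p of 8.27e-07). The collagen receptor subunit Itga2 was at -0.72 in the authors' deposited table (SE 0.19 with an edgeR adjusted p of 0.0220). Itga2b was at -0.28 in the authors' deposited table (SE 0.08) and missed the threshold with an edgeR adjusted p of 0.0573; it passed with 0.0410 when all genes were centred on their median and with 0.0337 when only the 4800 genes with a mean log2 CPM of 6 or more were tested. Itgb1, the partner shared by α2 and α6, was at -0.55 in the authors' deposited table (SE 0.26 with an edgeR adjusted p of 0.514). The median over the 5 was -0.72, against 0.01 over all genes. Fewer cells of a type and less RNA per cell cannot be told apart in these bulk libraries. Other blood cell markers moved in the same table: of 13 measured neutrophil markers 3 were lower, of 13 monocyte and macrophage markers 0 passed, and of 6 lymphoid markers 2 were lower and 1 higher. Below 0 lay 12 of the neutrophil markers, 12 of the monocyte and macrophage markers and 4 of the lymphoid markers. The medians of these 3 lists were -0.42, -0.27 and -0.25. Of 14 red cell markers 2 were lower and 13 lay below 0, with Slc4a1, the anion exchanger of red cells, at -1.09 in the authors' deposited table (SE 0.19 with an edgeR adjusted p of 5.66e-06). The part of these cells in the integrin values was not tested. Megakaryocyte markers other than integrins were lower as well, with 3 of 10 passing, all 10 below 0 and a median of -0.35.

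In 16N-plus cells 4 of the 5 subunits were lower in the knockout and 0 higher, where 3.12% of all genes were lower, 0.386% higher and 3.51% either. Itga6 fell to 0.303 of the control level (95% confidence interval 0.229 to 0.400), a log2 fold change of -1.72 in the authors' deposited table (SE 0.20 with an edgeR adjusted p of 4.99e-13), rank 44 from the lowest of 9326 genes. Itgb3 fell to 0.432 of the control level (0.359 to 0.519), at -1.21 in the authors' deposited table (SE 0.14 with an edgeR adjusted p of 1.43e-14). Itga2 was at -1.10 in the authors' deposited table (SE 0.26 with an edgeR adjusted p of 0.00210). Itga2b fell less, to 0.696 of the control level (0.606 to 0.798), at -0.52 in the authors' deposited table (SE 0.10 with an edgeR adjusted p of 3.32e-05). Itgb1 was at -0.77 in the authors' deposited table (SE 0.28 with an edgeR adjusted p of 0.134), with an interval of 0.401 to 0.863 of the control level. The median over the 5 was -1.10, against 0.07 over all genes. Of 13 measured neutrophil markers 2 were higher in the same table and 0 lower, and 0 of 13 monocyte and macrophage markers passed. Of 14 red cell markers 1 was lower, Slc4a1 at -1.12 in the authors' deposited table (SE 0.24 with an edgeR adjusted p of 0.000316), and 11 lay below 0. Genes of the lineage other than integrins were lower too: 4 of 10 megakaryocyte markers passed, with all 10 below 0 and a median of -0.72. The integrin genes were not tested against these markers.

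Over both gates together all 5 subunits were lower in the knockout, where 3.57% of all genes were lower, 0.622% higher and 4.19% either. The log2 fold changes in the authors' deposited table ran from -0.40 for Itga2b (SE 0.07 with an edgeR adjusted p of 3.26e-07) to -1.33 for Itga6 (SE 0.15 with an edgeR adjusted p of 2.56e-15). Itgb1 passed in this table alone among the megakaryocyte tables, at -0.66 in the authors' deposited table (SE 0.19 with an edgeR adjusted p of 0.0197). Itgb3 was at -1.01 and Itga2 at -0.91 in the authors' deposited table, with SEs of 0.09 and 0.16.

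The genotype effect was further below 0 in 16N-plus than in 8N cells for all 5 subunits, but 0 of 5 passed the test of that difference (t with 339.5 degrees of freedom on the edgeR values, Benjamini-Hochberg adjusted over 9326 genes), where 0.718% of all genes passed. The median difference over the 5 was -0.38, against 0.05 over all genes. With a normal distribution in place of t again 0 passed after adjustment, but at 339.5 degrees of freedom the 2 are nearly the same test. The difference was -0.78 for Itga6 (SE 0.29; 95% confidence interval -1.34 to -0.21; adjusted p = 0.299 from the edgeR values) and -0.40 for Itgb3 (SE 0.19; -0.77 to -0.03; adjusted p = 0.587). For Itga2b it was -0.24 (interval -0.50 to 0.02), for Itga2 -0.38 (-1.02 to 0.26) and for Itgb1 -0.21 (-0.96 to 0.54). Neither an equal nor an unequal effect at the 2 ploidies was shown.

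**Figure D2:**
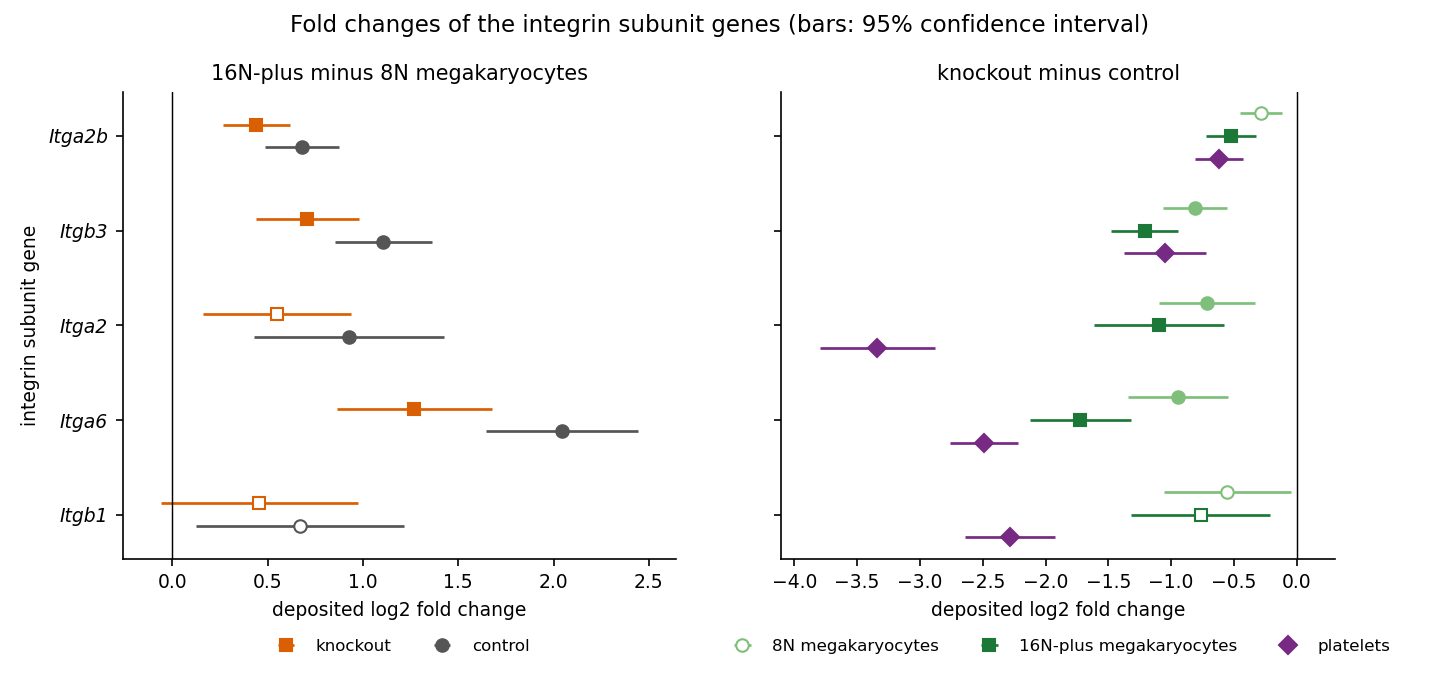
Log2 fold changes of the 5 integrin subunit genes (horizontal axes) from 16N-plus minus 8N cells within each genotype (left) and from knockout minus control within each cell type (right); points are the deposited values, bars their 95% confidence intervals, and filled points passed an adjusted p of 0.05. In platelets Itga2 lies at -3.34 and Itga2b at -0.62, while in 16N-plus cells they lie at -1.10 and -0.52.

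In platelets all 5 subunits were lower in the knockout, where 25.0% of the 12611 genes with an adjusted p were lower and 28.2% higher; with 53.2% of genes called in either direction, a call by itself says little here and the sizes carry the description. Which of the control and wild type libraries entered this comparison is not stated. Itga2 fell to 0.0986 of the control level (95% confidence interval 0.0718 to 0.135), a log2 fold change of -3.34 in the authors' deposited table (SE 0.23 with a DESeq2 adjusted p of 5.55e-45), rank 523 from the lowest of 12611. Itga6 fell to 0.178 of the control level, at -2.49 in the authors' deposited table (SE 0.14 with a DESeq2 adjusted p of 1.45e-71). Itgb1 fell to 0.205 of the control level, at -2.28 in the authors' deposited table (SE 0.18 with a DESeq2 adjusted p of 7.06e-35). The αIIbβ3 genes fell least: Itgb3 to 0.484 of the control level, at -1.05 in the authors' deposited table (SE 0.17 with a DESeq2 adjusted p of 1.51e-09), and Itga2b to 0.652, at -0.62 in the authors' deposited table (SE 0.10 with a DESeq2 adjusted p of 1.10e-09). The intervals of the α2, α6 and β1 genes lay wholly below those of both αIIbβ3 genes. From the lowest of 12611, Itga6 ranked 1122, Itgb1 1355, Itgb3 3319 and Itga2b 4446. Falls at least as large as those of the αIIbβ3 genes were thus common among the genes tested. The median over the 5 was -2.28, against 0.02 over all genes tested. Of 11 measured red cell markers 10 were higher in the same table and 0 lower, with a median of 4.98, and Alas2, the first enzyme of red cell heme synthesis, was at 6.57 in the authors' deposited table (SE 0.96). The part of red cell RNA in the integrin values was not tested. Of 10 megakaryocyte markers other than integrins 7 were lower and 0 higher, with a median of -1.40; most of them are among the platelet genes that set the sign of this table, so their direction is no separate support for it.

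Within αIIbβ3 the beta gene moved more than the alpha gene in every comparison. Megakaryocytes were sorted on CD41, the product of Itga2b, and the part of that sort in these differences was not tested. The fold change of Itgb3 minus that of Itga2b, from the authors' deposited tables and given without a test, was -0.53 in 8N cells, -0.69 in 16N-plus cells and -0.43 in platelets for genotype, and 0.27 in knockout and 0.43 in control cells for the ploidy step. In rebuilt levels per kb this made 0.433 Itgb3 per Itga2b in 8N knockout cells against 0.625 in 8N controls, and 0.522 in 16N-plus knockout cells against 0.841 in 16N-plus controls. The rebuilt balance of the laminin receptor pair, also untested, differed between ploidies as well. Per Itgb1 there were 0.552 Itga6 in 8N knockout cells against 0.725 in 8N controls, and 0.969 in 16N-plus knockout cells against 1.88 in 16N-plus controls. Itga2 per Itgb1 stayed between 0.0928 in 8N knockout cells and 0.124 in 16N-plus controls. In platelets, Itga6 minus Itgb1 was -0.21 and Itga2 minus Itgb1 was -1.06 in fold changes from the authors' deposited table.

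Most of the subunit RNAs were also higher at the higher ploidy. Among knockout cells 3 of 5 were higher in 16N-plus than in 8N cells, where 2.10% of all genes were higher, 1.21% lower and 3.31% either. Itga6 was higher by 1.27 on the log2 scale in the authors' deposited table (SE 0.21 with an edgeR adjusted p of 9.88e-07), rank 25 from the highest of 9326. Itgb3 was higher by 0.71 in the authors' deposited table (SE 0.14 with an edgeR adjusted p of 7.21e-05) and Itga2b by 0.44 (SE 0.09 with an edgeR adjusted p of 0.000193). Itga2 at 0.55 (SE 0.20 with an edgeR adjusted p of 0.118) and Itgb1 at 0.46 (SE 0.26 with an edgeR adjusted p of 0.475) in the authors' deposited table did not pass. The median over the 5 was 0.55, against -0.05 over all genes.

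Among control cells 4 of 5 were higher in 16N-plus than in 8N cells, where 4.74% of all genes were higher, 2.51% lower and 7.25% either. The median gene lay at -0.11 in this table, and subtracting it from every gene gave a split of 560 higher to 125 lower where the deposited values gave 442 to 234; the same 4 members passed, each with a value larger by that shift. Itga6 was 4.13-fold higher (95% confidence interval 3.13 to 5.44), a log2 fold change of 2.05 in the authors' deposited table (SE 0.20 with an edgeR adjusted p of 4.91e-18), rank 22 from the highest of 9326. Itgb3 was 2.15-fold higher, at 1.11 in the authors' deposited table (SE 0.13 with an edgeR adjusted p of 2.35e-13), and Itga2b 1.60-fold, at 0.68 (SE 0.10 with an edgeR adjusted p of 3.42e-09). Itga2 was at 0.93 in the authors' deposited table (SE 0.25 with an edgeR adjusted p of 0.00726), while Itgb1 at 0.67 (SE 0.28 with an edgeR adjusted p of 0.143) did not pass. The step in knockout minus the step in control cells is by construction the difference between gates given above, for which 0 of 5 passed. Macrophage markers moved the other way across the gates: of 13 measured, 8 were lower in knockout and 11 in control 16N-plus cells, and 0 higher in either, with medians of -0.96 and -1.25. Neutrophil markers passed lower for 5 of 13 in control cells and for 0 of 13 in knockout cells. Of 6 lymphoid markers 0 passed in control cells, while in knockout cells 2 were higher and 1 lower. The 2 were the immunoglobulin genes Igkc at 1.84 (SE 0.23 with an edgeR adjusted p of 8.43e-11) and Ighm at 1.48 (SE 0.27 with an edgeR adjusted p of 1.56e-05) in the authors' deposited table, the same direction as the integrin genes, and the lower one was the T cell gene Tcf7 at -1.31 (SE 0.22 with an edgeR adjusted p of 1.22e-06). The part of these cells in the ploidy steps was not tested.

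Of 22 other integrin subunit genes listed, 13 were measured in megakaryocytes and 14 tested in platelets. Of 4 other alpha subunits of β1 and β3 integrins measured in megakaryocytes, 0 passed for genotype in either gate. In platelets 3 of 6 were higher and 1 lower, where 28.2% of all genes were higher and 25.0% lower. Among them Itga5 was at 0.38 in 8N cells (SE 0.18 with an edgeR adjusted p of 0.527) and -0.02 in 16N-plus cells in the authors' deposited tables. In platelets Itga5 was at 1.17 (SE 0.66 with a DESeq2 adjusted p of 0.129). Itgb5, the β5 subunit that pairs with αv, moved in the same direction as the members, and in 16N-plus cells and platelets its values lay below those of all 5. It was at -0.71 in 8N (SE 0.17 with an edgeR adjusted p of 0.00687) and -2.02 in 16N-plus cells (SE 0.22 with an edgeR adjusted p of 5.22e-15) and at -6.50 in platelets (SE 0.20 with a DESeq2 adjusted p of 9.09e-226) in the authors' deposited tables. Its ploidy step was 0.31 in knockout cells (SE 0.18 with an edgeR adjusted p of 0.477) and 1.62 in control cells (SE 0.21 with an edgeR adjusted p of 1.09e-11) in the authors' deposited tables, and the genotype effect differed between gates by -1.31 (SE 0.28 with an adjusted p of 0.00177 from the edgeR values). Its usual partner Itgav was at 0.00 in 16N-plus cells (edgeR adjusted p = 0.995) and at -1.17 in platelets (SE 0.28 with a DESeq2 adjusted p of 7.21e-05) in the authors' deposited tables. Itga4, the α4 subunit of leukocytes and progenitors, did not pass for genotype in either gate and was higher in knockout platelets at 1.83 in the authors' deposited table (SE 0.42 with a DESeq2 adjusted p of 4.51e-05). Its step was -0.34 in knockout cells (SE 0.21 with an edgeR adjusted p of 0.523) and -0.85 in control cells (SE 0.24 with an edgeR adjusted p of 0.0127) in the authors' deposited tables. Itga9 was lower in knockout 16N-plus than 8N cells, at -0.59 in the authors' deposited table (SE 0.18 with an edgeR adjusted p of 0.0393). Itga1 and Itga7, with mean normalised counts of 4.26 and 2.77, were higher in knockout platelets in the authors' deposited table at 1.77 (SE 0.66) and 1.99 (SE 0.83 with a DESeq2 adjusted p of 0.0314).

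The β2 integrins of leukocytes did not follow one direction. Itgam, the CD11b chain of neutrophils and monocytes, was at -0.66 in 8N cells (SE 0.20 with an edgeR adjusted p of 0.0536) and higher at 1.02 in 16N-plus cells (SE 0.28 with an edgeR adjusted p of 0.0125) in the authors' deposited tables. The difference between gates was 1.68 (SE 0.34 with an adjusted p of 0.000636 from the edgeR values), opposite in sign to the 5 members. Its ploidy step was 0.52 in knockout cells (SE 0.22 with an edgeR adjusted p of 0.228) and -1.16 in control cells (SE 0.27 with an edgeR adjusted p of 0.000751) in the authors' deposited tables. Itgal, the alpha chain of LFA-1, was lower at -0.74 in 8N cells (SE 0.18 with an edgeR adjusted p of 0.00784) and at -0.47 in 16N-plus cells (SE 0.24 with an edgeR adjusted p of 0.403), and lower at -2.47 in platelets (SE 0.17 with a DESeq2 adjusted p of 3.29e-48), in the authors' deposited tables. Its beta chain gene Itgb2 was lower at -0.92 in 8N cells (SE 0.26 with an edgeR adjusted p of 0.0322) and at -1.35 in platelets (SE 0.17 with a DESeq2 adjusted p of 2.33e-15) in the authors' deposited tables. Itgal was also higher in 16N-plus than 8N knockout cells, by 0.81 in the authors' deposited table (SE 0.20 with an edgeR adjusted p of 0.00408), and Itgad was lower by -0.78 (SE 0.24 with an edgeR adjusted p of 0.0365). Itgax was lower in knockout platelets at -1.57 in the authors' deposited table (SE 0.48 with a DESeq2 adjusted p of 0.00226) at a mean normalised count of 20.1.

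**Figure D3:**
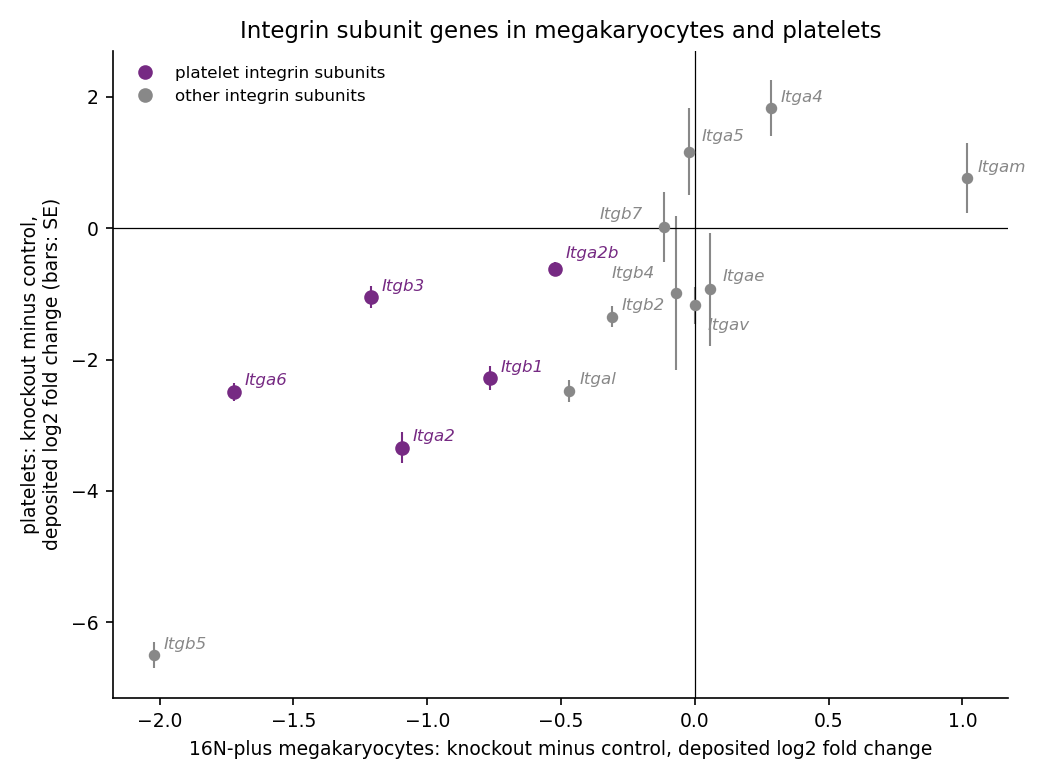
Genotype effect (knockout minus control, log2) of 15 integrin subunit genes measured in both assays, with 16N-plus megakaryocytes on the horizontal and platelets on the vertical axis; points are deposited values, vertical bars the deposited SE, purple the 5 platelet integrin subunits and grey the others. All 5 purple points lie below and left of 0, and Itgb5 lies at -2.02 and -6.50, beyond all of them.

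The genes whose proteins switch integrins on or off, or anchor them, were counted by list. In platelets such counts stand beside 25.0% of all genes lower and 28.2% higher, and a list near those shares shows nothing about its genes as a group. Of 6 activator genes measured in megakaryocytes, 1 was lower in 8N and 4 in 16N-plus knockout cells, with 0 higher, and in platelets 3 were lower and 2 higher of 8 tested, near the shares over all genes. Tln1 encodes talin, which binds the tail of the beta subunit and activates the receptor. It was at -0.30 in 8N (SE 0.08 with an edgeR adjusted p of 0.0339) and -0.66 in 16N-plus cells (SE 0.10 with an edgeR adjusted p of 2.78e-08), but higher at 0.44 in knockout platelets (SE 0.10 with a DESeq2 adjusted p of 1.67e-05), in the authors' deposited tables. Fermt3, encoding the talin partner kindlin-3, did not pass in either gate and was higher in knockout platelets at 0.70 in the authors' deposited table (SE 0.10 with a DESeq2 adjusted p of 1.16e-11). Rasgrp2, which activates the small GTPase Rap1 on a calcium signal, was lower at -1.03 in 16N-plus cells (SE 0.29 with an edgeR adjusted p of 0.0131) and -1.62 in platelets (SE 0.16 with a DESeq2 adjusted p of 5.63e-22) in the authors' deposited tables. Rap1b, the main Rap1 of platelets, was lower at -0.75 in 16N-plus cells (SE 0.21 with an edgeR adjusted p of 0.0115) and -3.10 in platelets (SE 0.14 with a DESeq2 adjusted p of 7.95e-102) in the authors' deposited tables, and Rap1a at -1.13 (SE 0.33 with an edgeR adjusted p of 0.0205) and -1.99 (SE 0.33 with a DESeq2 adjusted p of 1.09e-08).

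Of 7 inhibitor genes, 2 were lower in knockout cells of each gate and 0 higher, and in platelets 1 was lower and 3 higher. Rasa3, which turns Rap1 off, was lower at -0.93 in 8N (SE 0.22 with an edgeR adjusted p of 0.00528) and -1.95 in 16N-plus cells (SE 0.24 with an edgeR adjusted p of 1.77e-12) and at -2.06 in platelets (SE 0.20 with a DESeq2 adjusted p of 1.01e-24) in the authors' deposited tables. Flna, the filamin that competes with talin for beta tails, was lower at -0.76 in 8N (SE 0.10 with an edgeR adjusted p of 5.36e-10) and -1.09 in 16N-plus cells (SE 0.11 with an edgeR adjusted p of 1.12e-17), and at 0.18 in platelets (SE 0.13 with a DESeq2 adjusted p of 0.223), in the authors' deposited tables. Dok2 was higher in knockout platelets at 2.96 in the authors' deposited table (SE 0.24 with a DESeq2 adjusted p of 4.57e-33).

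Of 16 adaptor and kinase genes of integrin adhesions measured in megakaryocytes, 1 was lower in 8N and 2 in 16N-plus knockout cells, with 0 higher, and in platelets 10 were lower and 3 higher of 16. Parvb, a parvin that joins the integrin-linked kinase complex to actin, was lower at -1.03 in 8N (SE 0.25 with an edgeR adjusted p of 0.00773), -1.47 in 16N-plus cells (SE 0.28 with an edgeR adjusted p of 3.63e-05) and -1.15 in platelets (SE 0.18 with a DESeq2 adjusted p of 4.89e-10) in the authors' deposited tables. Lyn, a Src family kinase, was lower at -1.20 in 16N-plus cells (SE 0.29 with an edgeR adjusted p of 0.00209) and -3.63 in platelets (SE 0.20 with a DESeq2 adjusted p of 2.24e-69) in the authors' deposited tables. Rsu1, a partner of the same kinase complex, did not pass for genotype in either gate and was lower at -2.04 in platelets (SE 0.20 with a DESeq2 adjusted p of 9.77e-23) in the authors' deposited table. Tgfb1i1, encoding the paxillin relative Hic-5, was higher at 1.68 in knockout platelets (SE 0.29 with a DESeq2 adjusted p of 3.65e-08) in the authors' deposited table.

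Of 12 membrane partner genes, 1 was lower in knockout cells of each gate, and in platelets 7 were lower and 4 higher. The gene lower in both gates was the tetraspanin Tspan9, at -0.97 in 8N (SE 0.16 with an edgeR adjusted p of 8.22e-07) and -2.09 in 16N-plus cells (SE 0.22 with an edgeR adjusted p of 6.87e-16) in the authors' deposited tables, and its effect differed between gates by -1.12 (SE 0.27 with an adjusted p of 0.00992 from the edgeR values). In platelets Tspan9 was at -2.46 (SE 0.14) and the tetraspanin Cd9, which associates with β1 and β3 integrins, at -2.87 (SE 0.17 with a DESeq2 adjusted p of 9.11e-62) in the authors' deposited table. Tspan32 was higher at 4.44 in knockout platelets in the authors' deposited table (SE 0.14 with a DESeq2 adjusted p of 1.35e-214).

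**Figure D4:**
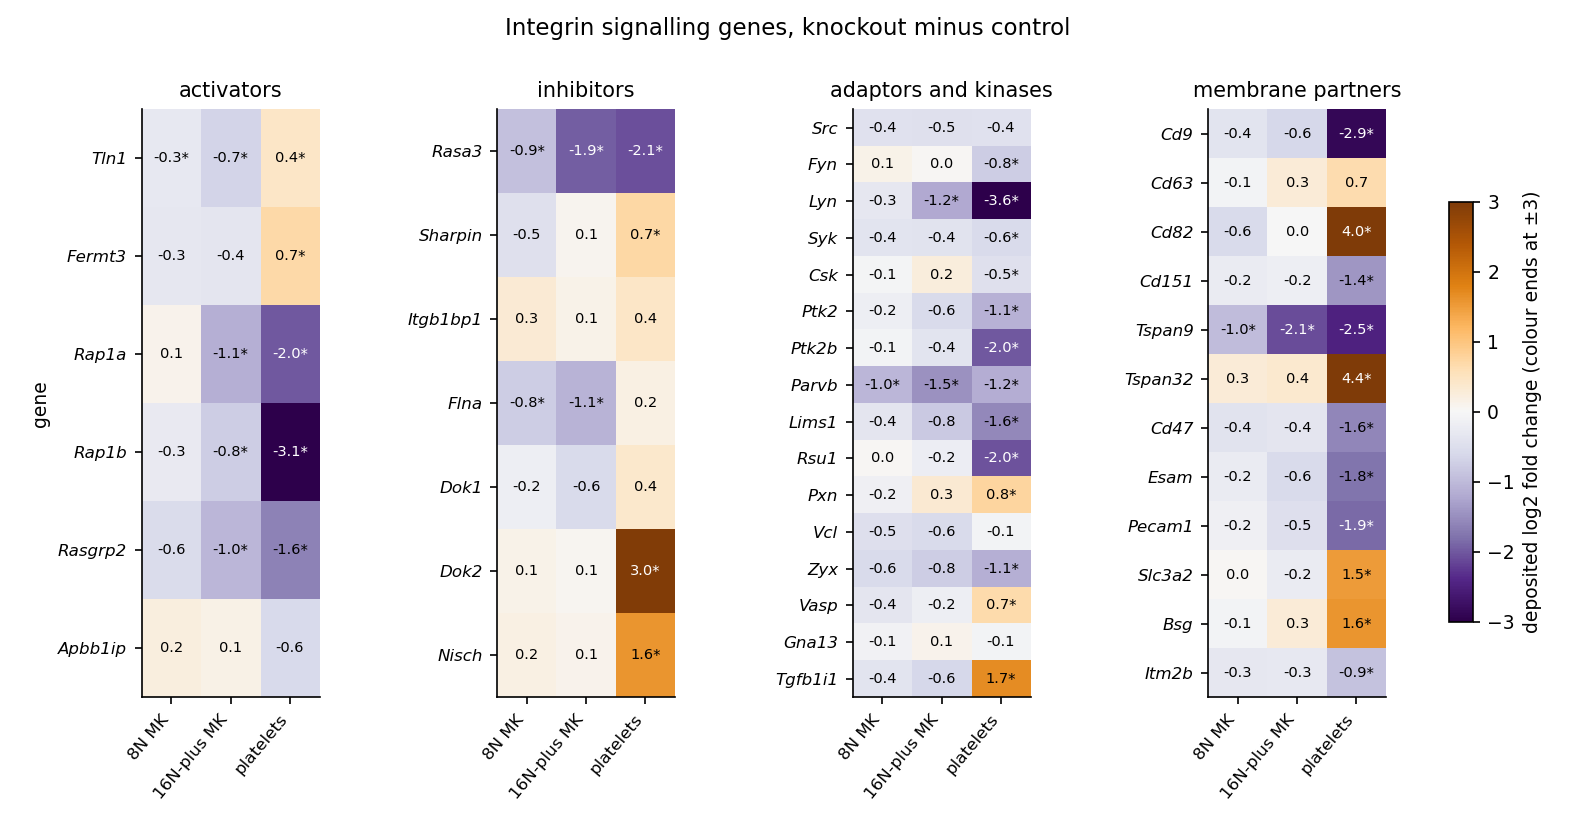
Genotype effects (knockout minus control, deposited log2 fold change printed in each cell and coloured from purple for lower to orange for higher) of integrin activator, inhibitor, adaptor and membrane partner genes in 8N megakaryocytes (MK), 16N-plus megakaryocytes and platelets; asterisks mark an adjusted p under 0.05. Tln1 is at -0.66 in 16N-plus cells and 0.44 in platelets, while Rasa3 is below 0 in all 3 columns.

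Of 9 ligand genes measured in megakaryocytes, 3 were lower in knockout cells of each gate and 0 higher, and in platelets 3 were lower and 2 higher of 14 tested, at or under the shares over all genes of 25.0% and 28.2%. Thbs1, encoding thrombospondin-1 of the alpha granules, was at -1.77 in 8N (SE 0.19 with an edgeR adjusted p of 4.18e-14), -2.21 in 16N-plus cells (SE 0.20 with an edgeR adjusted p of 3.54e-21) and -4.10 in platelets (SE 0.29 with a DESeq2 adjusted p of 8.43e-43) in the authors' deposited tables. Vwf, whose protein binds both GPIb and αIIbβ3, was at -0.47 in 8N (SE 0.09), -0.97 in 16N-plus cells (SE 0.12 with an edgeR adjusted p of 9.15e-13) and -1.20 in platelets (SE 0.15 with a DESeq2 adjusted p of 2.44e-15) in the authors' deposited tables. Lamc1, a chain of the laminins that α6β1 binds, was lower at -1.54 in 16N-plus cells (SE 0.32 with an edgeR adjusted p of 0.000190) and -3.25 in platelets (SE 0.23 with a DESeq2 adjusted p of 4.57e-45) in the authors' deposited tables. The third ligand gene lower in 8N cells was Fn1, fibronectin, at -1.02 in the authors' deposited table (SE 0.21 with an edgeR adjusted p of 0.000581), which was at -0.08 in 16N-plus cells (edgeR adjusted p = 0.945). In knockout platelets Fn1 was higher, at 1.70 in the authors' deposited table (SE 0.70 with a DESeq2 adjusted p of 0.0290), and so was the laminin chain gene Lamb2 at 2.64 (SE 0.63 with a DESeq2 adjusted p of 7.60e-05), at mean normalised counts of 7.38 and 6.96.

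The genes most like each member were taken as those at the smallest Euclidean distance over 4 deposited log2 fold changes (the control ploidy step and the genotype effect in 8N cells, 16N-plus cells and platelets), among 8163 genes with all 4; the 3 megakaryocyte values share control samples. Nearest to Itga2b were Ankrd35 (distance 0.0633), Psmd11 (0.181) and Aff1 (0.189). Nearest to Itgb3 were Nacc2 (0.327), Gsn (0.381), which encodes the actin-severing protein gelsolin, and Pdlim7 (0.483). For Itga2 they were Pde3a (0.242), a phosphodiesterase that breaks down cyclic AMP, Gsk3b (0.350) and Clcn3 (0.370). For Itga6 they were Tspan9 (0.373), Peg10 (0.475) and Slc22a23 (0.572), and for Itgb1 they were Nab1 (0.228), Bcr (0.268) and Vcpip1 (0.275). No gene was nearest to more than one member, and no member was among the 3 nearest of another.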

How the data were processed

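Per the labels' protocols, libraries of megakaryocyte RNA were stranded, made from total RNA and read on an Illumina machine, while platelet RNA was amplified gene by gene for an Ion Proton. Per the submitters' processing notes, Trimmomatic, STAR, Picard, Subread, featureCounts, edgeR, DESeq2 and the build mm10 were named, with no version and no role. The authors' megakaryocyte tables are edgeR output, per the file headers: log2 fold change and mean log2 CPM, the F value as a score, then the raw p-value with its adjusted form, and the deposited platelet table holds DESeq2 columns (a signal, the mean normalised count, with a log2 fold change, its SE, a score and p-values). The lowest mean log2 CPM was 4.23, so low genes had been left out. Depth per library is unknown, which leaves the p-values and SEs as the measure of precision. The platelet SEs are deposited, while every megakaryocyte SE printed beside a deposited value was computed as given below. The largest SE in the deposited platelet table was 1.58, and whether its fold changes were shrunken is not stated.

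Computed here were the megakaryocyte SE, confidence intervals at 95% and the difference between gates, with Python 3.11.15, pandas 2.3.3, NumPy 2.4.6 and SciPy 1.17.1. The SE was the size of the log2 fold change over the root of F. At an F of 0.5 or less it was replaced by the median SE of 101 genes of similar level. The difference between gates came from contrasts that share no group, and its SE treats them as independent. Whether cells of both gates came from the same animals is not given in the labels, so independence was not tested. The test of the difference was run on simulated data, with noise drawn from the same SEs and degrees of freedom. Such a run cannot show whether those SEs are right. The SE of the table over both gates was predicted from those of the 2 gates with a median ratio of 1.00 over 2150 genes. Symbols were found for 9300 of 9326 IDs. Of each list, up to 4 passing genes with the largest absolute change were eligible to be named, with all integrin subunits; some were left out, and a few further genes were named to complete a count. Alternatives were another threshold, centring, a minimum level and a minimum fold. The members and lists were chosen with earlier results of these data known.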

Additional observations from a re-analysis of the deposited data

How the results depend on the processing

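No member changed sign under any alternative run, but most settings keep the fold changes as they are and could not change a sign. Only centring moved the values, by the small median over all genes (-0.11 in the control ploidy step). At an adjusted p under 0.01 the genes called fell to 405 in the control ploidy step, against 676, to 176 in the knockout ploidy step, against 309, to 81 in 8N cells, against 134, to 259 over both gates, against 391, and to 43 for the difference between gates, against 67. Another setting kept the adjusted p under 0.05 and asked for an absolute log2 fold change of at least 1. It called 321 genes in the control step, 71 in the knockout step, 42 in 8N cells and 83 over both gates. Under that minimum fold, 2 members were called in the control step, 1 in the knockout step, 0 in 8N cells and 2 over both gates. In 16N-plus cells 3 members were called and in platelets 4. The cause lies in the setting, which removes smaller changes by construction. Over all alternatives, 139 of 155 values of members kept their side of the threshold, 14 lost the call and 2 gained it; both gains were Itga2b in 8N cells. Leaving out single samples could not be run, because the files used here hold no values per library. No paired analysis was possible because the results come from the authors' comparison tables, which carry no columns per replicate. Depth per library, and so what it limits, is unknown. Leaving SEs at low F unreplaced was an alternative chosen after seeing the data. No member had a replaced SE for genotype in either gate, the lowest F being 4.62 for Itgb1 in 8N cells. The members' calls on the difference between gates could therefore move only through the adjustment over all genes, and none changed.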

Other observations

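Other platelet adhesion receptors were measured beside the integrins. Of 7 such genes, 1 was lower in 8N and 3 in 16N-plus knockout cells, with 0 higher, and in platelets 3 were lower and 1 higher of 6, where 25.0% of all genes were lower and 28.2% higher. Gp6, the signalling collagen receptor that acts beside α2β1, was at -0.78 in 8N (SE 0.17 with an edgeR adjusted p of 0.000916), -1.33 in 16N-plus cells (SE 0.23 with an edgeR adjusted p of 9.70e-07) and -2.76 in platelets (SE 0.27 with a DESeq2 adjusted p of 3.62e-23) in the authors' deposited tables. Clec1b, encoding the podoplanin receptor CLEC-2, was lower at -1.19 in 16N-plus cells (SE 0.26 with an edgeR adjusted p of 0.000356) and at -2.53 in platelets (SE 0.31 with a DESeq2 adjusted p of 1.89e-15) in the authors' deposited tables. The gene higher in knockout platelets was Cd36, a scavenger receptor, at 5.17 in the authors' deposited table (SE 0.92 with a DESeq2 adjusted p of 8.55e-08).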
